A study of Mus musculus with 4 samples.

Results

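The dual specificity MAP kinase phosphatases are enzymes that switch off the mitogen-activated protein kinases. They are represented here by 10 genes, Dusp1, Dusp2, Dusp4, Dusp5, Dusp6, Dusp7, Dusp8, Dusp10, Dusp14 and Dusp16, out of 55487 genes in the deposited tables. Each was taken as the row whose gene name equals its symbol, and each symbol matched 1 row. The family was selected on the Rbfox2 cKO against Control values of the same libraries, since earlier results, among them the difference of Dusp5, were known when it was put together. Fold changes and adjusted p of the 10 genes are therefore given as a description and support nothing.

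RNA-seq was done on satellite cells, stem cells of mouse skeletal muscle that express Pax7, freshly isolated and with no later culture named in the labels. The Rbfox2 cKO group, 2 libraries, came from mice carrying a floxed Rbfox2 gene and Pax7-CreERT2, in which tamoxifen starts recombination in Pax7-expressing cells, together with a Rosa26 EYFP reporter of recombination. The Control group, 2 libraries, carries no other label, so neither its alleles and tamoxifen treatment nor the age and number of animals behind any library is known here. The last field of the library codes is the same within each group and differs between the groups. Its meaning is not given, so whatever it marks, such as a pool, cannot be told apart from genotype in any difference below. The middle field of the codes follows the replicate number, so whatever that field marks cannot be told apart from that number. Rbfox2 is an RNA-binding protein that controls which exons are spliced into transcripts, and the study asks how it acts on Numb and Notch signalling.

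The kinases ERK, JNK and p38 become active when a threonine and a tyrosine of their activation loop are phosphorylated, and the phosphatases of this family remove both phosphates. Many of the genes are themselves induced by the kinases, which makes a negative feedback loop. They fall into classes. Dusp1, Dusp2, Dusp4 and Dusp5 encode inducible nuclear enzymes. Dusp6 and Dusp7 encode cytoplasmic enzymes selective for ERK. Dusp8, Dusp10 and Dusp16 encode enzymes that act mainly on JNK and p38. Dusp14 encodes a small atypical member without the kinase-binding domain of the others. In satellite cells ERK signalling is known from responses to fibroblast growth factors and p38 from activation and commitment, and Dusp1 is well known as an immediate early gene that is induced when muscle is dissociated.

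All 10 proteins use the same active site, a cysteine that takes the phosphate and an arginine that holds it. The 24 coding bases of that site, read from the longest GENCODE M21 coding sequence of each gene, show what the members share and how far they have drifted. The codons of the catalytic cysteine and of the arginine are in capitals, and each line runs 5′ to 3′.
Dusp1: catTGCcaggccggcatctccCGG
Dusp2: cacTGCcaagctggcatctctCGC
Dusp4: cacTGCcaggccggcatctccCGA
Dusp5: cacTGCgaagctggggtttccCGG
Dusp6: catTGCttggcaggtatcagcCGC
Dusp7: cacTGCctagcaggcatcagcCGT
Dusp8: cacTGTctggctggcatctctCGC
Dusp10: cacTGCcaggccggcgtgtccCGA
Dusp16: cacTGCttagctgggatctctCGC
Dusp14: cacTGTgcggcaggcgtgagcCGC
Of the 24 bases, 11 were the same in all 10 genes. Dusp4 shared 22 with Dusp1 and with Dusp10, the most of any pair. Dusp14 and Dusp16, and likewise Dusp5 and Dusp6, shared 13, the fewest. The coding sequences ran from 594 bases in Dusp14 to 1989 bases in Dusp8. Outside this site the genes have diverged at the length that reads resolve: no 50-base stretch of Dusp1, Dusp2, Dusp4, Dusp6, Dusp7, Dusp10 or Dusp16 transcripts recurred in another gene, so their counts could not be split with a family member over that length. The shares were 0.581% for Dusp8 and 1.32% for Dusp14. The share was 20.5% for Dusp5, all of it with AC137853.2, a gene on the opposite strand that covers 547 of the 2473 exon bases of Dusp5. AC137853.2 held 20 and 3 estimated counts in cKO 1 and 2, against 18 and 12 in Control 1 and 2, where Dusp5 held 3174 and 1612 in cKO, against 808 and 1085 in Control. No strand setting is known, so reads of the shared stretch cannot be told apart between these genes. The same holds for 66 of the 4870 exon bases of Dusp8, which lie opposite Gm32786, and for 11 of the 3311 of Dusp1, which lie opposite Ergic1.

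RefSeq promoters (GRCm38.p6, 250 bases before to 50 bases after the annotated start) were found for 9 of the 10 genes, all but Dusp4. Of these, 4 are shown, those of the genes with the highest fold changes (Dusp5 and Dusp8), of the most abundant member (Dusp1) and of the best expressed member that was lower in cKO (Dusp10). Capitals mark matches, on either strand, to the CRE (TGACGTCA), the site of CREB and ATF factors, and to the CArG box, the site of serum response factor.
Dusp5, chr19:53528895-53529194, plus strand: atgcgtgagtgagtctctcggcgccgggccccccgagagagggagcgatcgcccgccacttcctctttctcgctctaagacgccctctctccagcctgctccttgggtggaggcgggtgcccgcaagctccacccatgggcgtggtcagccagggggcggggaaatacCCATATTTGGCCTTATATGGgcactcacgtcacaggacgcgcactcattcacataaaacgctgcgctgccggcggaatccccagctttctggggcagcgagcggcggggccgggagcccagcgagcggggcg
Dusp8, chr7:142095235-142095534, minus strand: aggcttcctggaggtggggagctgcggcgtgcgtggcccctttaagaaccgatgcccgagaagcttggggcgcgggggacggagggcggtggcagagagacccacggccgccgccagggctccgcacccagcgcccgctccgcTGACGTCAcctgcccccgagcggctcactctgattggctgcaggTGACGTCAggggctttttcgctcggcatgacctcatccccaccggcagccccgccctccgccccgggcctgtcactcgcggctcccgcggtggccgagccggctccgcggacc
Dusp1, chr17:26508423-26508722, minus strand: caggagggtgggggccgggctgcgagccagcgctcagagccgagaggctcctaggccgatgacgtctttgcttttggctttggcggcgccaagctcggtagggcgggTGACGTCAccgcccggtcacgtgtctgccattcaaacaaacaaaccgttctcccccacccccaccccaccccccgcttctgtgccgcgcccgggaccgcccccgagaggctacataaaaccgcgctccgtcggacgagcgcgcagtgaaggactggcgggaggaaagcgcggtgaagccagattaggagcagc
Dusp10, chr1:184034131-184034430, plus strand: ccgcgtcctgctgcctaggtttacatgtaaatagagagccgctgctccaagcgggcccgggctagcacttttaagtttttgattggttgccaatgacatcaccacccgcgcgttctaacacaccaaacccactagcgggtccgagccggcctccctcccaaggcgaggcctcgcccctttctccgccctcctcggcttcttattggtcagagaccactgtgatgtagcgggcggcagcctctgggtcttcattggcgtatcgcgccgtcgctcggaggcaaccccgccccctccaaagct
Dusp5 held 2 CArG boxes that abut, their first bases 82 and 72 bases before the start, and was the only 1 of the 9 member promoters with a match. Of all 32851 RefSeq promoters of the same length, 1.63% held a CArG box. Dusp8 held 2 full CREs, 107 and 63 bases before the start, and Dusp1 held 1, 143 bases before it, while 1.79% of all promoters held at least 1. Dusp10 held neither motif in this window. The core TGACG, which lies inside each full CRE, was in 5 of the 9 member promoters, those of Dusp1, Dusp2, Dusp5, Dusp8 and Dusp16, and in 20.8% of all promoters. The AP-1 site TGAGTCA and the TATA motif TATAAA were in 0 of 9, against 5.20% and 13.6% of all promoters. The E-box CACGTG was in the promoters of Dusp1 and Dusp2 and in 7.15% of all. The core of the RBPJ site of Notch signalling, TGGGAA, was in that of Dusp2 alone and in 25.6% of all, and the GC box GGGCGG was in 8 of 9 and in 35.7% of all. The 9 member promoters held between 57.3% (Dusp6) and 78.7% (Dusp7) G and C. The shares were not adjusted for base content, on which matches to such short motifs depend. These matches describe letters in these windows and no binding was measured.

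Estimated counts summed to 68884091 in cKO 1, the lowest of the 4 libraries, and to 101997422 in cKO 2, the highest. Low values ran higher in cKO 1, whose median TPM over all genes was 0.771, against 0.312 in cKO 2 and 0.392 and 0.437 in Control 1 and 2. Rbfox2, the targeted gene, stood at 40.0 and 15.2 CPM in cKO 1 and 2, against 131.3 and 56.0 CPM in Control 1 and 2, a log2 fold change of -1.76 (SE 0.35), or -2.61 to -1.04 with 1 library left out. The cKO libraries both lay below Control, and cKO 1 lay near Control 2. All 10 satellite cell markers examined were above 1 TPM in at least 1 library, and their summed level was 16675 and 17323 TPM in cKO 1 and 2, against 17271 and 16642 TPM in Control 1 and 2. That sum rests on a few abundant genes. Pax7, the defining marker and the driver of Cre, stood at 15.9 and 13.5 TPM in cKO, against 7.9 and 7.0 TPM in Control (log2 fold change 0.84, unadjusted p = 0.011, adjusted p = 0.556 in edgeR). Cxcr4, a surface marker of satellite cells, had a log2 fold change of -0.67 (unadjusted p = 0.0374, adjusted p = 0.947 in edgeR), and 0 of the 10 were called. Markers of other cells were present in every library, with none of the 8 marker lists holding a gene at 0 throughout. The summed level of 5 erythroid markers was 1798 and 1471 TPM in cKO, against 336 and 763 TPM in Control, and 5 of 5 were called higher. That of 8 macrophage and leukocyte markers was 50.4 and 43.6 TPM in cKO, against 30.0 and 32.2 TPM in Control, with 0 of 8 called and Adgre1 under 1 TPM throughout. That of 6 endothelial markers was 156 and 129 TPM in cKO, against 116 and 126 TPM in Control, with 0 of 6 called. Markers of fibro-adipogenic progenitors (512 and 441 TPM in cKO, against 416 and 467 TPM in Control), mature fibres (55.7 and 35.8 in cKO, against 54.3 and 54.0 in Control, Myh2 under 1 TPM), Schwann cells (37.2 and 33.9 in cKO, against 27.0 and 26.3 in Control) and smooth muscle (154 and 132 in cKO, against 143 and 137 in Control) had 0 calls in edgeR, DESeq2 or limma, and 0 of their genes had an unadjusted p under 0.05. Without adjustment 2 leukocyte markers of opposite sign did, Lyz2 (log2 fold change 0.73) and Itgam (-1.96), as did the satellite cell markers Pax7 and Cxcr4. Itgam was low, at 0.29 and 0.22 CPM in cKO, against 0.53 and 1.47 CPM in Control. Of the 5 erythroid markers, DESeq2 called 1, limma with a TPM minimum called 0 and limma with no filter on TPM called 1. The last fit also called 1 satellite cell marker. In bulk samples fewer cells of a type and less RNA per cell cannot be told apart, and the part of other cells in the differences below was not tested.

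Levels within the family, compared as TPM because that unit is per transcript length, differed widely. Dusp1 stood far above the rest, at 1127 and 1099 TPM in cKO 1 and 2, against 885 and 1149 TPM in Control 1 and 2. It ranked between 113 and 150 among all 55487 genes in the 4 libraries and held between 79.7% and 83.3% of the summed TPM of the 10 genes. Dusp10 and Dusp6 came next, then Dusp16. In cKO the order went on with Dusp8 (24.7 ± 0.15 TPM), Dusp5 (22.4 ± 15.6), Dusp2 (9.70 ± 2.76), Dusp4 (6.83 ± 1.75), Dusp14 (3.64 ± 0.33) and Dusp7 (1.67 ± 0.50; SD, n = 2 each). In Control it went on with Dusp2 (12.3 ± 4.72 TPM), Dusp8 (11.7 ± 0.22), Dusp5 (7.98 ± 1.52), Dusp14 (6.08 ± 2.04), Dusp4 (5.53 ± 0.61) and Dusp7 (1.41 ± 0.42; SD, n = 2 each). Neighbours whose libraries overlapped were, in cKO, Dusp6 and Dusp10, Dusp8 and Dusp5, Dusp5 and Dusp2, and Dusp2 and Dusp4. In Control they were Dusp2 and Dusp8, Dusp5 and Dusp14, and Dusp14 and Dusp4. Dusp9, the remaining cytoplasmic ERK phosphatase and no member of the list, was as low as Dusp7, with 2.36 and 1.14 TPM in cKO, against 2.35 and 1.87 TPM in Control.

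**Figure D1:**
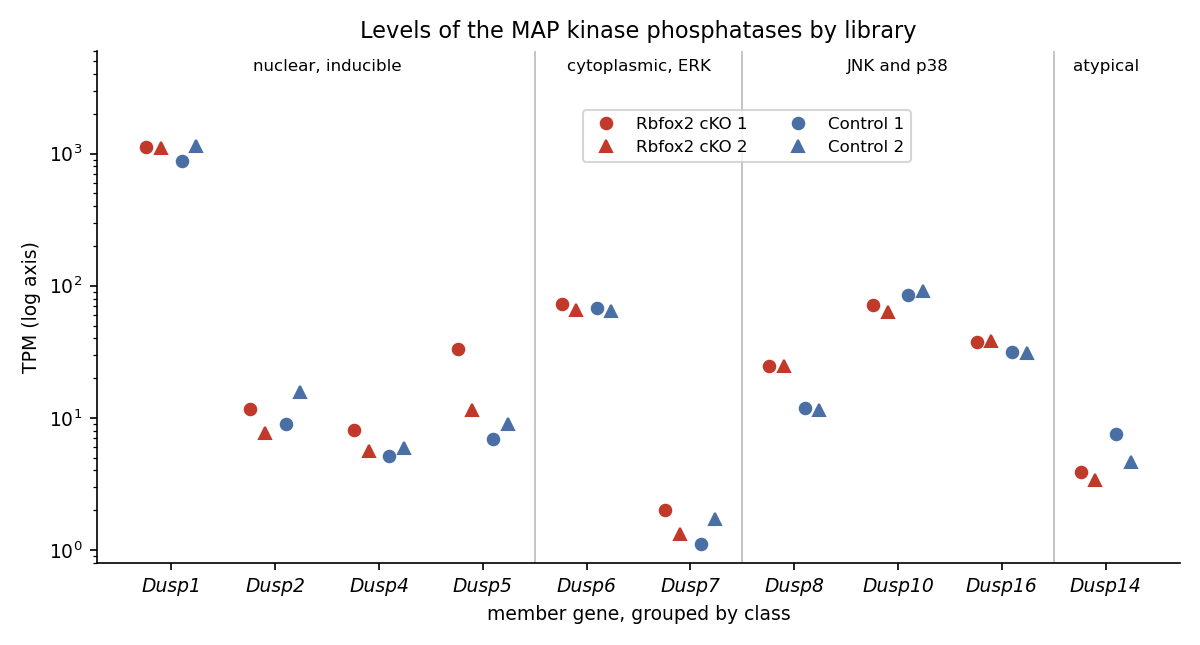
TPM (log axis) of each of the 10 phosphatase genes in every library, with red symbols for Rbfox2 cKO and blue symbols for Control, circles for replicate 1 and triangles for replicate 2. Dusp1 lies between 885 and 1149 TPM and Dusp7 between 1.11 and 2.02 TPM, and the red symbols of Dusp5 and Dusp8 lie above the blue ones.

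By class, the 4 nuclear inducible genes summed to 1180 and 1124 TPM in cKO, against 906 and 1180 TPM in Control, a sum that is nearly all Dusp1. Without Dusp1 the other 3 summed to 53.2 and 24.7 TPM in cKO, against 21.02 and 30.7 TPM in Control, so the groups overlapped and cKO 1 stood apart. The 3 JNK and p38 genes summed to 133.3 and 126.4 TPM in cKO, against 127.8 and 133.1 TPM in Control. The 2 cytoplasmic ERK genes summed to 74.7 and 66.4 TPM in cKO, against 69.4 and 66.1 TPM in Control. No class total separated the genotypes except that of the atypical Dusp14 alone, which is described below.

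Differences between genotypes were read from normalised counts (CPM, with library sizes scaled by TMM). TMM multiplied the library sizes by 1.27 in cKO 1 and 0.88 in cKO 2, against 0.94 and 0.965 in Control 1 and 2. CPM carries these factors and TPM does not. Of the 10 genes, all of which passed the filter on low counts, 1 was called, Dusp5, beside 0.551% of the 38143 genes tested. Calls are an adjusted p under 0.05 in edgeR's quasi-likelihood test with Benjamini-Hochberg adjustment over all genes tested. In 3 genes (Dusp4, Dusp5 and Dusp8) the lower cKO library exceeded the higher Control library, an arrangement found in 18.0% of all genes tested. In 3 genes (Dusp2, Dusp10 and Dusp14) both lay below, as in 13.3% of all genes tested. The median log2 fold change of the 10 was 0.003, beside 0.06 over all genes tested. An unadjusted p under 0.05 was found for 2 of the 10, Dusp5 and Dusp8, and for 1842 of the 38143 genes tested.

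Dusp5, a nuclear phosphatase with strong selectivity for ERK (ENSMUSG00000034765.6; GRCm38 chromosome 19, 53529109 to 53542431, plus strand), stood at 36.5 and 18.1 CPM in cKO 1 and 2, against 10.2 and 13.2 CPM in Control 1 and 2. The groups did not overlap, but cKO 2 lay much nearer to Control than to cKO 1. The mean was 27.3 ± 13.0 CPM in cKO and 11.7 ± 2.1 CPM in Control (SD, n = 2 each), or 2.33-fold. The log2 fold change was 1.22 (SE 0.33), for which edgeR gave an adjusted p = 0.0363. The median absolute log2 ratio was 0.47 between the cKO libraries and 0.16 between the Control libraries, over 10579 genes averaging 4 CPM or more. For Dusp5 the log2 ratio of cKO 1 over cKO 2 was 0.99, and 95.9% of those genes had a smaller one in either direction. These ratios are of CPM and carry the TMM factors. In TPM, which does not carry them, Dusp5 stood at 33.5 and 11.4 TPM in cKO 1 and 2, against 6.91 and 9.05 TPM in Control 1 and 2. Without cKO 1 the log2 fold change was 0.64 (adjusted p = 0.185), and without cKO 2 it was 1.57 (adjusted p = 0.00293). The call was lost in 12 of 13 alternatives, with adjusted p between 0.00293 and 1.00, while the direction held in all 13.

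Dusp1, which acts on p38 and JNK as well as ERK and is the classical immediate early member (ENSMUSG00000024190.7; chromosome 17, 26505590 to 26562128, minus strand), had 1069 and 1383 CPM in cKO, against 1142 and 1289 CPM in Control. The Control values lay between those of cKO, and the log2 fold change was 0.01 (SE 0.39). Dusp4, a nuclear phosphatase of ERK and JNK, stood at 9.74 and 9.85 CPM in cKO, against 8.35 and 9.61 CPM in Control, with a log2 fold change of 0.13 (SE 0.32). The 4 values lay close together, and in TPM the groups overlapped. Dusp2, best known from lymphocytes, stood at 7.83 and 7.50 CPM in cKO, against 8.03 and 14.3 CPM in Control. Its log2 fold change of -0.55 (SE 0.32) rested on Control 2: it was -0.09 without that library and -0.92 without Control 1. The nuclear inducible genes thus held the family's highest positive value and its most abundant gene, with no direction in common.

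**Figure D2:**
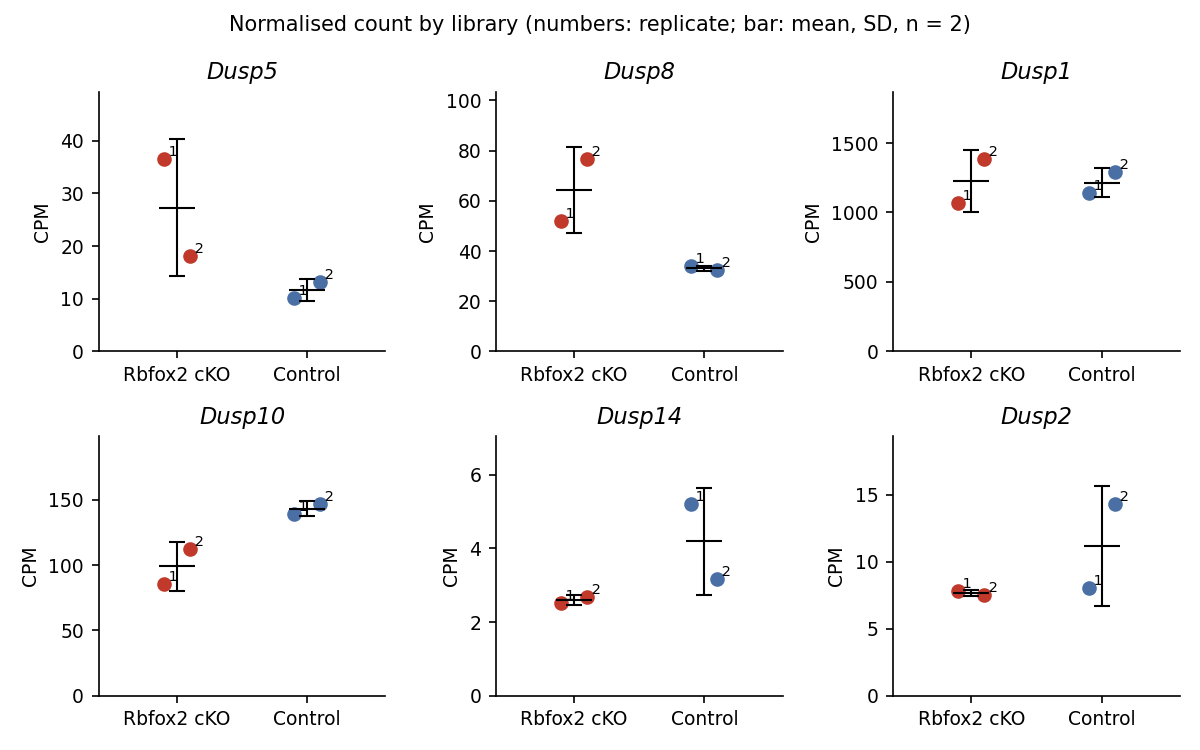
Normalised count (CPM, axes from 0) of 6 phosphatase genes in each library, with Rbfox2 cKO on the left and Control on the right of each panel; numbers give the replicate, and bars give the mean and SD (n = 2). Dusp5 is raised mainly in cKO 1, Dusp8 in both cKO libraries, and Dusp10 is lower in both, while Dusp14 and Dusp2 have 1 Control library close to cKO.

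Dusp8, which acts on JNK and p38 (ENSMUSG00000037887.11, on the minus strand of chromosome 7 at 142079490 to 142095843), stood at 52.1 and 76.6 CPM in cKO 1 and 2, against 33.8 and 32.5 CPM in Control 1 and 2. The groups did not overlap, and the Control libraries nearly coincided. In TPM the cKO libraries did too, with 24.6 and 24.9 TPM in cKO, against 11.8 and 11.5 TPM in Control. The mean was 64.4 ± 17.3 CPM in cKO and 33.2 ± 0.96 CPM in Control (SD, n = 2 each), or 1.94-fold. The log2 fold change was 0.96 (SE 0.34), for which edgeR gave an adjusted p = 0.342. It did not pass the threshold with all 4 libraries. It passed in 4 of 13 alternatives: with library totals only (1.08, adjusted p = 0.00211 in edgeR), without cKO 1 (1.22, adjusted p = 2.65e-05), and in limma on log2(TPM + 0.1) (1.08, adjusted p = 0.0437) and on log2(TPM + 1) with no filter (1.02, adjusted p = 0.00298). Without cKO 2 the log2 fold change was 0.58. In CPM the log2 ratio of cKO 1 over cKO 2 was -0.55, and 62.2% of the genes averaging 4 CPM or more had a smaller one in either direction. That ratio carries the TMM factors, so it is no measure of replicate agreement alone, and the TPM of the cKO libraries nearly coincided. Adjusted p over the 13 alternatives ran from 2.65e-05 to 1.00.

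Dusp10, a phosphatase of p38 and JNK (ENSMUSG00000039384.8, on the plus strand of chromosome 1 at 184013302 to 184075636), stood at 85.9 and 112.2 CPM in cKO 1 and 2, against 139.2 and 147.2 CPM in Control 1 and 2. Both cKO libraries lay below both Control libraries in CPM and in TPM. The mean was 99.0 ± 18.6 CPM in cKO and 143.2 ± 5.65 CPM in Control (SD, n = 2 each), and edgeR's log2 fold change was -0.53 (SE 0.35, adjusted p = 1.00). It was -0.34 without cKO 1 and -0.81 without cKO 2, where it passed (adjusted p = 0.0142, range over 13 alternatives 0.0142 to 1.00). Dusp16, the remaining JNK and p38 phosphatase (chromosome 6, 134715468 to 134792625, minus strand), had 74.1 and 113.1 CPM in cKO, against 86.6 and 79.2 CPM in Control. The Control values lay between those of cKO, and the log2 fold change was 0.18 (SE 0.34). In TPM its cKO libraries lay above Control, at 37.3 and 38.3 TPM in cKO, against 31.5 and 30.9 TPM in Control. Whether its groups overlap thus differed between CPM, which carries the TMM factors, and TPM, which does not. The log2 ratio of its mean transcript length, cKO over Control, was 0.025. Within this class mean TPM was higher in cKO for Dusp8 and Dusp16 and lower for Dusp10, and the class totals given above overlapped.

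For the cytoplasmic ERK phosphatases no difference between genotypes was resolved, which with 2 libraries per group does not show that the genotypes are alike. Dusp6, the main feedback phosphatase of ERK (ENSMUSG00000019960.8; chromosome 10, 99263231 to 99267489, plus strand), stood at 87.5 and 113.7 CPM in cKO, against 110.7 and 103.2 CPM in Control, with a log2 fold change of -0.09 (SE 0.34). Dusp7, the lowest member, stood at 2.86 and 1.71 CPM in cKO, against 1.93 and 2.67 CPM in Control (log2 fold change -0.01, SE 0.41). For both genes the groups overlapped, and the sign changed between scalings. Dusp14, the atypical member (ENSMUSG00000018648.15, on the minus strand of chromosome 11 at 84048041 to 84069261), stood at 2.50 and 2.69 CPM in cKO, against 5.22 and 3.17 CPM in Control. Both cKO libraries lay below both Control libraries, with Control 2 nearer to cKO than to Control 1. The log2 fold change was -0.69 (SE 0.37), with -0.30 without Control 1 and -1.03 without Control 2.

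**Figure D3:**
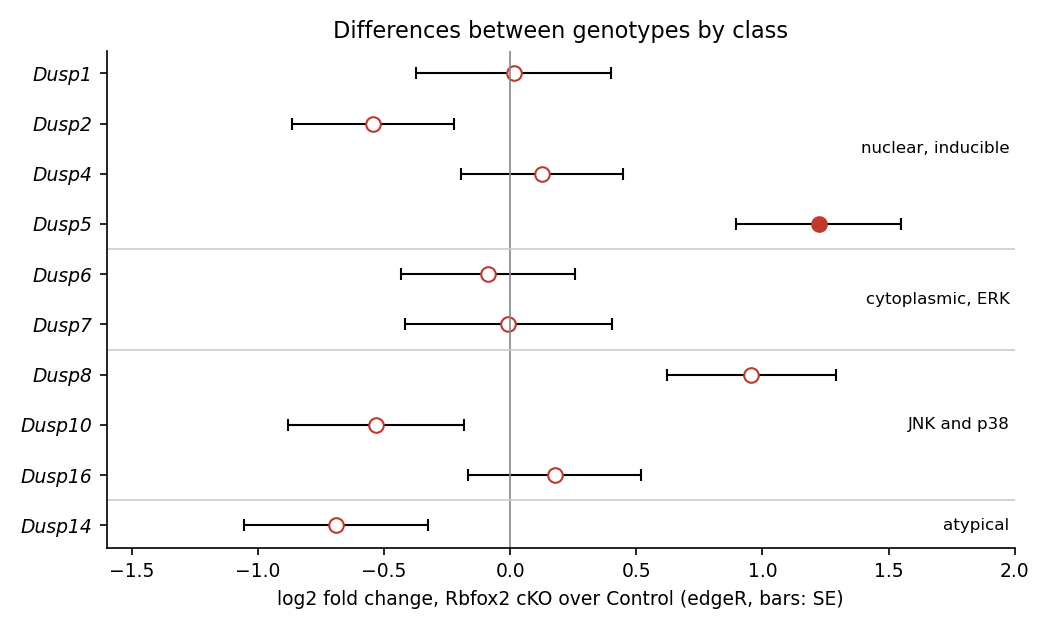
Log2 fold change of Rbfox2 cKO over Control for the 10 phosphatase genes by class, from edgeR with all 4 libraries; bars are the SE, and a filled point marks an adjusted p under 0.05. Dusp5 (1.22) is the filled point, Dusp8 (0.96) is the next highest, and the other 8 lie between -0.69 and 0.18.

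Dusp5 and Dusp8 kept their direction under every normalisation, tool and left-out library tried, while the call of each depended on them. Over the alternatives that kept all 4 libraries, the log2 fold change ran from 1.12 to 1.48 for Dusp5 and from 0.90 to 1.08 for Dusp8. Over those that left out 1 library, it ran from 0.64 to 1.57 for Dusp5 and from 0.58 to 1.22 for Dusp8. Each gene was lowest without the cKO library in which it was highest, cKO 1 for Dusp5 and cKO 2 for Dusp8.

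**Figure D4:**
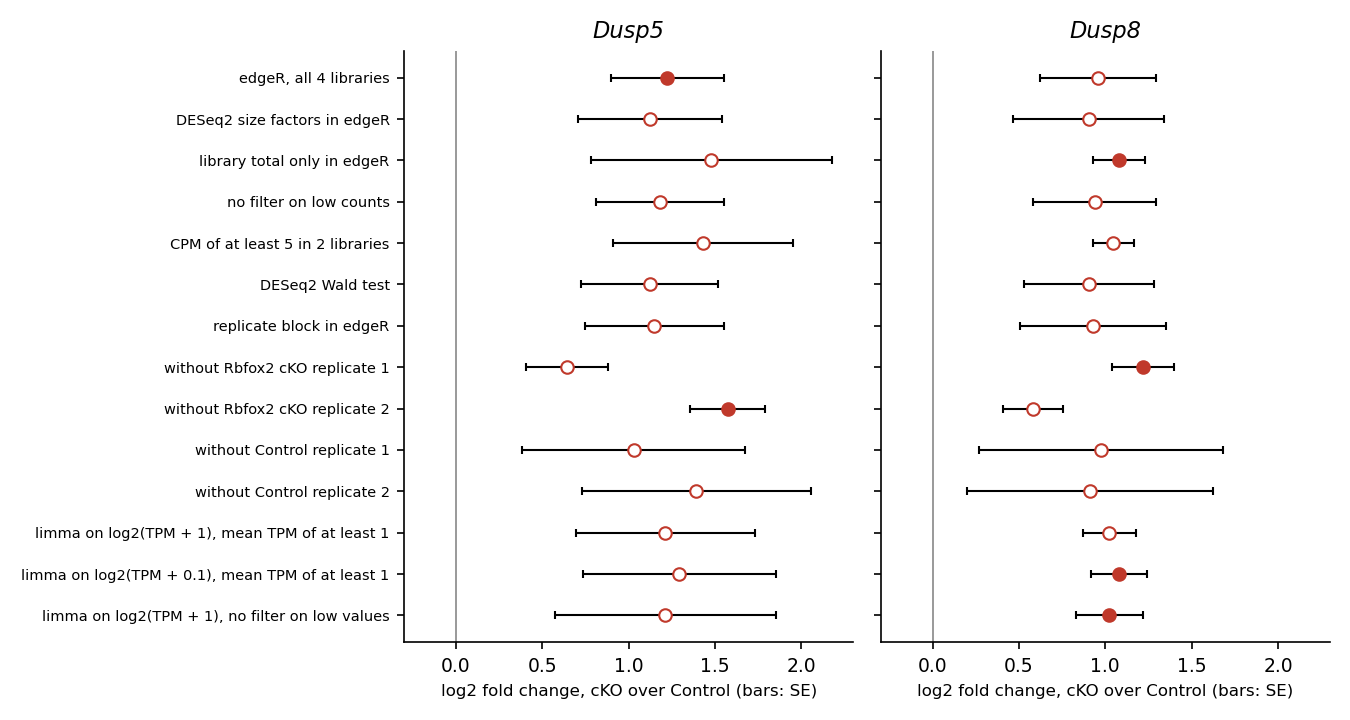
Log2 fold change of Dusp5 and Dusp8, Rbfox2 cKO over Control, under the edgeR fit with all 4 libraries and each of 13 alternatives; bars are the SE, and filled points have an adjusted p under 0.05. All points lie above 0, Dusp5 is filled in 2 fits and Dusp8 in 4.

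Because Rbfox2 regulates splicing, the mean transcript length of each gene was read from the ratio of estimated count to TPM. The ratio was scaled on genes with 1 annotated transcript. This mean length moves only when reads shift between transcripts of unequal length. It cannot show other changes of splicing, which were not tested. For Dusp4 and Dusp5, which have 1 annotated transcript of 2740 and 2473 bases, it came back within 2 bases in every library, as it must. For Dusp8 it was 4801 and 4802 bases in cKO, against 4802 and 4803 bases in Control, next to the longest annotated transcript of 4804 bases, so its difference came at the same length. For Dusp10 it was 2730 and 2768 bases in cKO, against 2764 and 2762 bases in Control. For Dusp14 it was 1466 and 1231 bases in cKO, against 1164 and 1161 bases in Control, on counts of only 218 and 240 in cKO, against 414 and 261 in Control. For Dusp1 it was 2153 and 1962 bases in cKO 1 and 2, against 2163 and 1907 bases in Control 1 and 2, so the libraries numbered 1 differed from those numbered 2 and the genotypes overlapped. The remaining 4 genes overlapped too. Dusp7 had the widest spread, 3207 and 2021 bases in cKO, against 2912 and 2662 bases in Control, on 249 and 153 estimated counts in cKO, against 153 and 220 in Control. Dusp16 was at 4515 and 4600 bases in cKO, against 4604 and 4357 in Control. Dusp6 was at 2733 and 2722 bases in cKO, against 2721 and 2725 in Control, and Dusp2 at 1527 and 1508 bases in cKO, against 1495 and 1556 in Control.

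The wider MAP kinase pathways were read from 6 lists with 147 rows tested, both identifiers of Ptp4a1 among them. Of these rows 7 were called higher and 0 lower, beside 0.364% called higher and 0.186% called lower over all genes tested. In the JNK and p38 cascade 3 of 28 rose and 25 did not pass, with a list median log2 fold change of 0.14. Mapk12, the muscle-enriched kinase p38 gamma, stood at 5.48 and 5.58 CPM in cKO, against 1.71 and 1.64 CPM in Control (log2 fold change 1.72, SE 0.37, adjusted p = 0.00151 in edgeR). The libraries of each group nearly coincided, and leaving out a library moved the value only between 1.64 and 1.75, though the call was lost without either Control library (adjusted p = 0.995 and 0.952, range over 12 alternatives 0.00216 to 0.995, called in 8). Map3k6, an upstream kinase of stress signalling, stood at 228 and 144 CPM in cKO, against 67.2 and 77.7 CPM in Control (1.36, SE 0.35, adjusted p = 0.0283), with 1.00 without cKO 1, and was called in 2 of 13 alternatives, those without either cKO library. Mapk14, the kinase p38 alpha, stood at 6.56 and 25.2 CPM in cKO, against 6.83 and 5.89 CPM in Control (1.32, SE 0.33, adjusted p = 0.0159). Its groups overlapped, and the value was -0.03 without cKO 2 and 2.00 without cKO 1, so the call rested on that library, and it was called in 1 of 13 alternatives.

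Of 10 other phosphatases of MAP kinases, 1 rose and 9 did not pass (median 0.03). Ppm1d, a p53-induced phosphatase that acts on p38, stood at 26.6 and 32.2 CPM in cKO, against 7.68 and 17.3 CPM in Control (1.23, SE 0.33, adjusted p = 0.0341 in edgeR), with 0.75 without Control 1 and 1.92 without Control 2, and was called in 1 of 13 alternatives. Of 24 other dual specificity phosphatase rows 0 passed (median -0.11). Those with the highest counts were Ptp4a1, which has 2 identifiers (0.03 and -0.29), and Ptp4a2 (-0.29), phosphatases of the regenerating liver family. All 3 rows moved with the cKO library left out. Without cKO 1 and without cKO 2 the first identifier of Ptp4a1 stood at 0.21 and -0.22. The second stood at 0.19 and -1.07, and Ptp4a2 at -0.06 and -0.63. Of 30 genes of the ERK cascade 0 passed (median 0.11), with Fgfr1, a receptor of fibroblast growth factors, at 0.68, the receptor gene Egfr at -0.43 and the ERK kinase gene Map2k1 at -0.08. Fgfr1 passed in 4 of 13 alternatives (library totals only, without either cKO library, and limma with no filter on TPM), with adjusted p between 0.00017 and 1.00. Egfr stood at -0.12 without cKO 1 and at -0.88 without cKO 2, where it passed (adjusted p = 0.0077, range over 13 alternatives 0.0077 to 1.00). Of 19 other feedback regulators of ERK 0 passed (median 0.11), with Errfi1 at 0.32, Spry2 at -0.64 and Spred1 at -0.21. Each moved with the cKO library left out. Without cKO 1 and without cKO 2 the values were 0.52 and 0.03 for Errfi1, -0.17 and -1.39 for Spry2, and 0.18 and -0.81 for Spred1. A gap between the cKO libraries was not particular to these genes. The median absolute log2 ratio given above was 0.47 between the cKO libraries and 0.16 between the Control libraries. It was taken on CPM, which carries the TMM factors of 1.27 in cKO 1 and 0.88 in cKO 2. An offset from that scaling and a spread of single genes cannot be told apart in it. Errfi1 passed in 2 of 13 alternatives, and Spry2 and Spred1 in 1 each, without cKO 2. Beside these counts of 0 in edgeR, an unadjusted p under 0.05 was found for 3 genes of the ERK cascade, 1 feedback regulator and 2 of the other dual specificity phosphatases. DESeq2 called 0 in each of these 3 lists, and limma with no filter on TPM called 3, 1 and 0 in the same order.

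Several members are immediate early genes, so that group was set beside them. Of 36 immediate early genes 3 rose and 33 did not pass, with a median of 0.11. Cebpd stood at 671 and 465 CPM in cKO, against 82.4 and 168.6 CPM in Control (2.18, adjusted p = 1.28e-05 in edgeR). Rhob stood at 65.1 and 28.5 CPM in cKO, against 12.4 and 21.04 CPM in Control (1.48, adjusted p = 0.00386), and Cebpb at 36.0 and 21.8 CPM in cKO, against 6.11 and 15.5 CPM in Control (1.42, adjusted p = 0.0058). In CPM all 3 were higher in cKO 1 than in cKO 2, as Dusp5 was, while Dusp1 and Dusp8 were higher in cKO 2. In TPM Dusp1 was higher in cKO 1 (1127 TPM, against 1099 TPM in cKO 2), and Dusp8 was nearly equal (24.6 and 24.9 TPM). Without cKO 1 Rhob stood at 0.78, without Control 1 Cebpd stood at 1.73 and Cebpb at 0.88, and without Control 2 Cebpb stood at 2.22. Of the 13 alternatives, Cebpd was called in 3, Rhob in 1 (without cKO 2) and Cebpb in 0. Leukocytes are known to express Cebpb and Cebpd. The leukocyte and erythroid marker sums stood higher in cKO, as given above. Of the 8 leukocyte markers, 7 had a positive log2 fold change, 1 a negative one (Itgam, -1.96), and 0 were called. The part of such cells in these values was not tested.

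**Figure D5:**
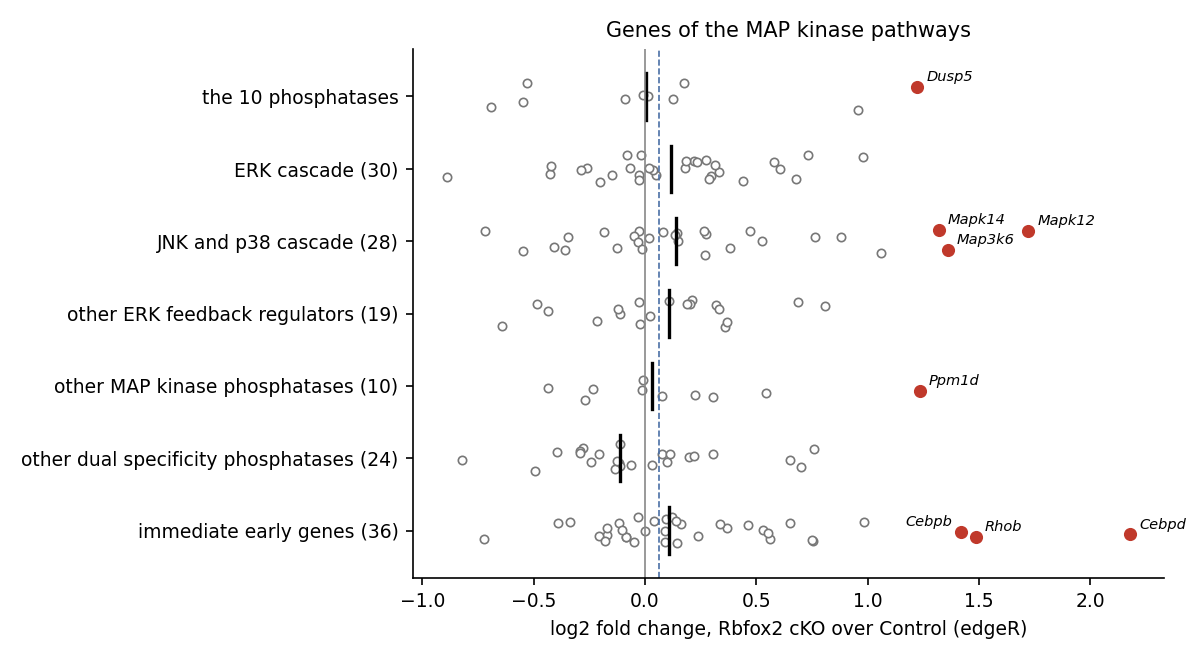
Log2 fold change, Rbfox2 cKO over Control, of the 10 phosphatases and of the 6 lists, 1 point per row tested. Filled red points have an adjusted p under 0.05 in edgeR and are named. Black bars are list medians, and the dashed line is the median of all genes tested (0.06). All list medians lie between -0.11 and 0.14, and the 8 named genes lie above 1.2.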

How the data were processed

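RNA-seq measured 2 Rbfox2 cKO and 2 Control libraries. Per the labels' protocols, 10 ng of RNA went into each library and cDNA was made by SMART-Seq. GRCm38, HISAT2 2.1.0 and StringTie 1.3.6 come from the submitters' processing notes, which give them no role, and no source used here gives the strand setting, annotation release or filters. The authors deposited estimated counts per gene, already whole numbers, which were used as they are. The authors also deposited TPM, which is per transcript length and keeps no depth. If the estimated counts derive from transcript coverage, shifts between transcripts can move them.

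Genotypes were compared on counts with edgeR 4.0.16 under R 4.3.3 (TMM, filterByExpr, robust quasi-likelihood test, Benjamini-Hochberg adjustment over 38143 genes, threshold 0.05). The SE is the size of the log2 fold change over the square root of F. The common biological coefficient of variation, fitted with TMM scaling, was 0.373. It holds the spread between libraries together with any offset left by the scaling, so it is not a measure of biological spread alone. Whether the libraries are separate animals is not labelled, so the spread behind each p-value is that of these samples only, possibly technical. In edgeR that spread is moderated over all genes tested, so an SE is not a gene's own spread alone. The SE also depended on the scaling. With TMM the SE was 0.33 for Dusp5 and 0.34 for Dusp8, and with library totals only it was 0.70 and 0.15. For Dusp1 and Dusp10 it was 0.39 and 0.35 with TMM, and 0.12 and 0.14 with library totals only. Ratios between libraries of 1 group used log2(CPM + 0.5). Alternatives used DESeq2 1.42.0 and limma 3.58.1 on log2(TPM + pseudocount), a scale that understates changes of low genes. The fits were also run on simulated counts with the same dispersion for every gene and no scaling shift between libraries. That setting differs from these data, so the run does not show how the fits perform on them. GENCODE M21 supplied coordinates and coding sequences, and RefSeq the promoters.

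The members, lists and tests were chosen with earlier results of these data known. All 10 members and Rbfox2 are named. Of each pathway list up to 4 called genes with the smallest adjusted p are named, or, with none called, up to 3 with the highest mean CPM. The CRE and CArG box were picked for display after their matches were seen.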

Additional observations from a re-analysis of the deposited data

How the results depend on the processing

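The number of genes called, 210 with all 4 libraries (139 higher, 71 lower in cKO), was 119 (66 higher) with DESeq2 size factors, 28 (16 and 12) when low counts were kept, 14 (10 and 4) when 2 libraries had to reach 5 CPM, 96 (53 and 43) in DESeq2, 53 (36 and 17) in limma on log2(TPM + 1), 102 (62 and 40) on log2(TPM + 0.1) and 404 (285 and 119) with no filter on TPM. Leaving out 1 library gave 51 to 2267 (26 to 606 higher, 22 to 2016 lower). The replicate number as a block gave 96 (61 and 35), with 0 phosphatases and 2 pathway genes called and Dusp5 at 1.15. Same-numbered libraries deviated with a correlation of -0.202, and the crossed pairing, chosen after seeing the data, gave 243 calls. Of the 10 phosphatases 0 were called with DESeq2 size factors, no count filter, the CPM minimum, DESeq2 and limma on log2(TPM + 1) with the TPM minimum, and 0 to 2 with 1 library left out. Of the pathway genes, 7 called, 2 were called with DESeq2 size factors, in DESeq2 and on log2(TPM + 0.1), 0 with no count filter, the CPM minimum and log2(TPM + 1), and 0 to 26 with 1 library left out.

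Dusp5 lost its call at 1.12 with DESeq2 size factors and in DESeq2, 1.48 with library totals only, 1.18 with no filter, 1.43 with the CPM minimum, 1.21 on log2(TPM + 1) with and without the TPM minimum, and 1.29 on log2(TPM + 0.1), and stood between 0.64 and 1.57 with 1 library left out. Dusp8 passed at 1.08 with library totals only, 1.08 on log2(TPM + 0.1) and 1.02 with no TPM filter, and stood between 0.58 and 1.22 with 1 library left out. Dusp10 ran from -0.81 to -0.34 with 1 library left out. Values close to 0 changed sign. Dusp1 was -0.044 with DESeq2 size factors and in DESeq2, -0.0073 with no filter, and -0.25 to 0.20 with 1 library left out. Dusp6 was 0.0497 with library totals only, 0.016 with the CPM minimum, 0.052, 0.053 and 0.052 in the 3 fits of TPM, and -0.36 to 0.10 with 1 library left out. Dusp7 was 0.22 with library totals only, 0.15, 0.23 and 0.15 in the fits of TPM, and -0.41 to 0.25 with 1 library left out. Dusp16 ran from -0.23 to 0.46 with 1 library left out. Dusp2, Dusp4 and Dusp14 kept their sign and stayed uncalled in every alternative that gave a value. Dusp7 and Dusp14 gave none under the CPM minimum. Map2k1 was 0.032 with library totals only, 0.0015 with the CPM minimum, 0.056 in each fit of TPM and -0.52 to 0.22 with 1 library left out. Ptp4a1 was -0.026 with DESeq2 size factors and in DESeq2, and -0.22 to 0.21 with 1 library left out (second identifier, -1.07 to 0.19). Mapk14 ran from -0.025 to 2.00 and Spred1 from -0.81 to 0.18 with 1 library left out. Where a cause is not part of the alternative's construction, the cause was not tested. With 1 library left out, the lone sample of a group is assumed to vary like the other group.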
